A study of Homo sapiens with 54 samples.

Results

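Interferon-stimulated genes (ISGs) are the genes whose transcription rises when a cell senses interferon, and 38 of them were followed here in MDA-MB-231 cells treated with Compound Kushen Injection (CKI) and with mixtures of its components. They were taken by gene symbol, and all 38 are among the 27978 genes of the count table. MDA-MB-231 is an established line from a human triple-negative breast cancer. CKI is an injection made from the extract of 2 medicinal plants. The 54 RNA-seq libraries fall into 18 groups of 3, which the series describes as biological replicates of this 1 line. Cells were left untreated or given a mixture at 2 mg/ml. In batch 1, untreated cells, CKI, N-OmtOspc (CKI without oxymatrine, Omt, and oxysophocarpine, Ospc), N-MacOmtOspc (CKI without macrozamin, Mac, and these 2), OmtOspc (Omt and Ospc only) and MacOmtOspc (Mac, Omt and Ospc only) were sampled after 24 h and after 48 h. In batch 2, untreated cells, CKI and 4 mixtures that each lack 1 compound, N-Mac, N-Nme (N-methylcytisine), N-Omt and N-Tri (trifolirhizin), were sampled after 48 h. The mixtures that lack 1 compound and those that lack more are thus in different batches, and each mixture was compared only with untreated or CKI cells of its own time and batch. The labels name no interferon, virus or inhibitor of the interferon pathway for any group, controls included.

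Interferons bind receptors that carry Janus kinases, and the signal ends on a transcription factor that holds STAT2 and IRF9 and binds the interferon-stimulated response element (ISRE) in ISG promoters. Some ISG promoters also hold the gamma-activated sequence (GAS). RNA sensors such as RIG-I (DDX58) and MDA5 (IFIH1) act upstream and lead to interferon production, and IRF1 and IRF7 can switch on many ISGs themselves. The products block viral RNA, protein synthesis and budding, and many breast cancer lines and tumours hold part of the set switched on without infection.

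The promoters of the members are shown because the ISRE is what the set is known to share, and because members that fell and members that rose with CKI both hold it. RefSeq promoter windows (GRCh38.p14, 250 bases before to 50 after each start) were matched for 31 of the 38 genes, 30 by symbol and DDX58 by synonym. The ISRE core (GAAA, any 2 bases, then GAAA again), searched on both strands, was in a window of 21 of these 31 genes (67.7%), and in 4.38% of the 27305 genes with windows. The GAS letters TTCNNNGAA, also searched on both strands, were in a window of 10 of 31 genes (32.3%), against 9.38% of all genes. Per window the shares were 61% of 41 windows of the members and 3.57% of all 35116 windows for the ISRE core. Below are the 170 bases just before the start, on the strand of the gene, with the ISRE core matches in capitals (on the other strand the core reads as 2 copies of TTTC). Matches may overlap, as in ISG15 and BST2.
IFIT1, chr10:89392453-89392622, plus strand: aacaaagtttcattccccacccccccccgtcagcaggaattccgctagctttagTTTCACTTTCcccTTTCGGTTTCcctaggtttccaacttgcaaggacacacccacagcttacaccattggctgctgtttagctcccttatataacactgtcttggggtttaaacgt
IFIT3, chr10:89327827-89327996, plus strand: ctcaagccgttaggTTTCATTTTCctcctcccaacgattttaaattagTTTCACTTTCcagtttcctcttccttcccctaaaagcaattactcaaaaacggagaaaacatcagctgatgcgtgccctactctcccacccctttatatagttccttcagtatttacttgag
ISG15, chr1:1013327-1013496, plus strand: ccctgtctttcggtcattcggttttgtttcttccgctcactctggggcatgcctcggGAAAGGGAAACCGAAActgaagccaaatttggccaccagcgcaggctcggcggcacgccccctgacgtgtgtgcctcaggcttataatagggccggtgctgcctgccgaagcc
OAS3, chr12:112938304-112938473, plus strand: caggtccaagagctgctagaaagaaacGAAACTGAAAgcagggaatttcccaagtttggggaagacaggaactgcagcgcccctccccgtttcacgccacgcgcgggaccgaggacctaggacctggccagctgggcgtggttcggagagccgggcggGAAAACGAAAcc
RSAD2, chr2:6877607-6877776, plus strand: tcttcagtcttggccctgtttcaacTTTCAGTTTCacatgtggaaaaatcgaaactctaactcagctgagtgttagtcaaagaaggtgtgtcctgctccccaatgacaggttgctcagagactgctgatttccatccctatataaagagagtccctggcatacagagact
BST2, chr19:17405631-17405800, minus strand: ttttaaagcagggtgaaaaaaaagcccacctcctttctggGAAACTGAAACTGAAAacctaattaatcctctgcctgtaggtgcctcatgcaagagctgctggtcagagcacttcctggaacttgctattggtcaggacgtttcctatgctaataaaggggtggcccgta
IFI6, chr1:27672193-27672362, minus strand: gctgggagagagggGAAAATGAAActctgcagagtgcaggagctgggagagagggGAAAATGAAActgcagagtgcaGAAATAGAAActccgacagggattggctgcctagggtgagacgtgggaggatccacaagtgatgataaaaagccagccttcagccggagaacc
The first 5 genes fell with CKI and the last 2 rose, as described next. All 7 are printed with a window that holds the core, so they do not show how common it is. The other window of RSAD2 held no match to this core. Nor did any window of HERC6, XAF1, OAS1, CMPK2, IRF1 or IRF9, which also fell with CKI. Copies of GAAA with other than 2 bases between them were not searched for. Copies with 1 base between them stand in windows of OAS1, XAF1 and CMPK2 and in that other window of RSAD2. A window without a match is thus not shown to lack an ISRE. IRF7, which rose, had no window. A match in these letters is a description and not a binding site, and it was not measured here whether any factor sat on it.

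The libraries held between 17673537 and 26138924 counts, with a median of 22568666.5. Levels are given as CPM, the count scaled to the TMM-adjusted library size, and differences as the log2 fold change fitted by edgeR's quasi-likelihood test on the raw counts. A gene was called higher or lower at an adjusted p-value under 0.05, with Benjamini-Hochberg adjustment over all genes tested in that comparison. At 24 h, CKI replicate 1, OmtOspc replicate 2 and N-MacOmtOspc replicate 2 lay apart from their groups along the difference between the untreated cells of the 2 batches (slopes 0.657, 0.582 and 0.612, against -0.414 to 0.105 in the other 33 libraries of batch 1). Counts of members called that rest on them, and the values of some single genes, are given with and without them. Counts for the other gene lists are given with all libraries only. Of markers of the line, VIM, CD44, EGFR and CAV1 were at 66.7 CPM or more in every library and ESR1 and PGR were under 1 CPM. SPARC was low, at 0.39 to 2.89 CPM, and of the markers listed here as low or absent in the line KRT19 was at 265 to 866 CPM, GATA3 at 5.22 to 45.4 CPM and CDH1 at up to 7.2 CPM. Of 5 leukocyte markers PTPRC and CD3E stayed under 1 CPM in every library, CD14 reached 28.6 CPM and CD68, a lysosomal gene that other cells also express, was at 100 to 399 CPM, and their sum was 103.3 to 408 CPM in batch 1 and 149.8 to 369.9 CPM in batch 2. The fibroblast markers DCN and THY1 stayed under 1 CPM in every library, while 7 summed fibroblast markers reached 98.5 CPM in batch 1 and 42.8 CPM in batch 2, mostly COL1A1 and COL1A2. Their part in the results was not tested. In bulk RNA, fewer cells that express a gene and less RNA per cell cannot be told apart.

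Untreated cells expressed most of the set, and in 31 of the 38 genes the untreated libraries of either batch averaged 10 CPM or more at 48 h. BST2, the membrane tether that holds budding virus on the cell, averaged 214 ± 8.47 CPM (SD, n = 3) in batch 1 and 223 ± 20.6 CPM in batch 2. IFI44L, of uncertain function, averaged 0.877 ± 0.0937 and 4.20 ± 0.898 CPM, and in 19 of the 54 libraries it had under 10 counts. The batches did not start from the same level. Of the 38 genes, 26 differed between untreated cells of batch 2 and batch 1 at 48 h, 22 higher and 4 lower in batch 2, while 58.8% of the 14242 genes tested differed (29% higher and 29.8% lower). The median log2 difference of the members was 0.36, and that of all genes tested 0.0045.
RSAD2, which encodes viperin, an enzyme that makes a chain-terminating nucleotide, stood out. Its untreated libraries were at 4.08, 3.45 and 3.27 CPM in batch 1 and 17.5, 17.0 and 17.7 CPM in batch 2, a log2 difference of 2.23 (adjusted p = 7.13e-09). The lowest batch 2 library was thus over 4 times the highest of batch 1, and the untreated cells of batch 1 at 24 h, at 4.42, 3.30 and 3.32 CPM, lay with those of batch 1 at 48 h. IFI44L too differed by 2.22, its neighbour IFI44 by 1.21, and the RNA helicases IFIH1 and DDX60 by 1.05 and 1.05. IRF1 (-0.49), IFI35 (-0.44), IRF7 (-0.41) and the E3 ligase TRIM22 (-0.41) were the 4 that were lower in batch 2. Against the spread of the replicates, BST2, IFI27, MX1, MX2, IRF9, OAS1, OAS2, IFIT5, PARP9, USP18, CMPK2 and EPSTI1 were not called different. What made the batches differ was not tested, and each ratio below is to the untreated cells of its own batch.

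**Figure D1:**
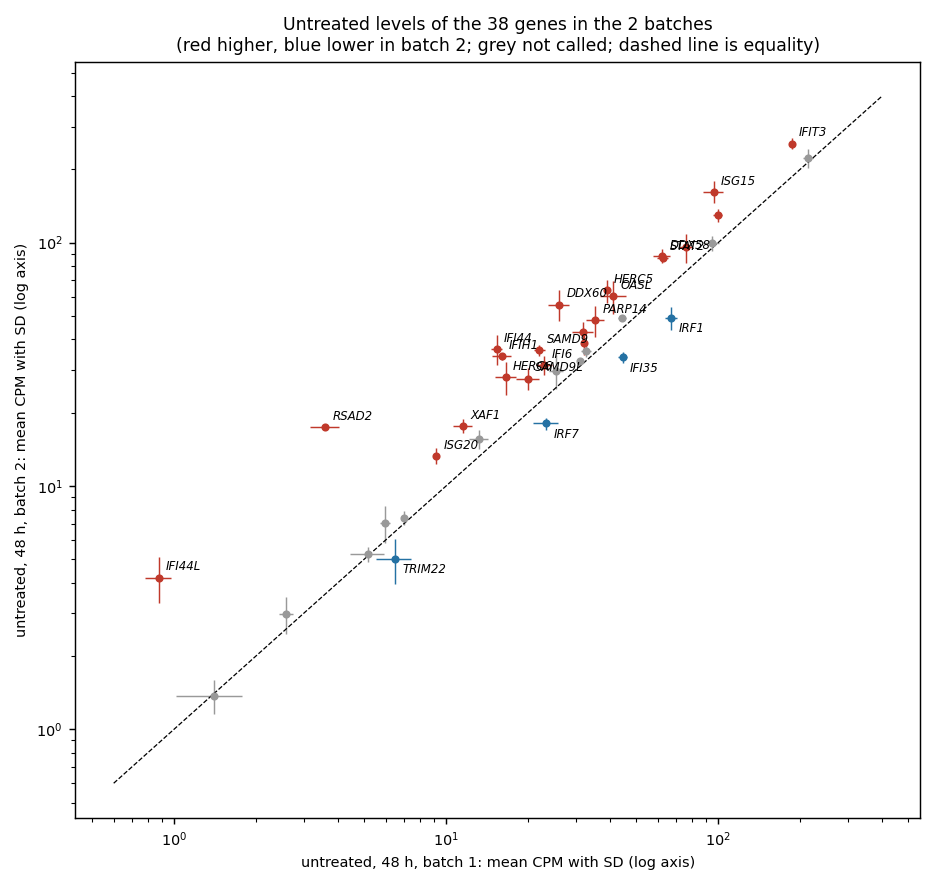
Mean CPM of each of the 38 genes in untreated cells at 48 h, batch 1 on the x axis and batch 2 on the y axis, both log axes, with the SD of 3 libraries as bars and the dashed line at equality. Most called genes lie above the line, RSAD2 and IFI44L farthest from it, and IRF1, IRF7, IFI35 and TRIM22 lie below it.

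Fewer members differed with time in culture, at a share near that of all genes. Between untreated cells of batch 1 at 48 h and 24 h, 9 of the 38 genes differed, 4 higher and 5 lower at 48 h, against 25.2% of all genes (12.5% higher and 12.6% lower). DDX60 was higher by 0.42, PARP14 by 0.35, DDX58 by 0.25 and IRF9 by 0.24, while USP18 (-0.54), the protease that removes ISG15, ISG15 itself (-0.49), HERC6 (-0.30), IRF1 (-0.22) and IFIT1 (-0.21) were lower. The number called was 4 without 48 h replicate 2, 5 without 48 h replicate 3, 3 without 24 h replicate 1 and 2 without 24 h replicate 2.

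Most of the set was lower with CKI than in untreated cells. At 24 h, 26 of the 38 genes were called, 23 lower and 3 higher, beside 38.7% of the 14245 genes tested (19.3% lower and 19.3% higher). At 48 h in batch 1 the numbers were 28 lower and 5 higher of 38, beside 62.5% of all genes (31% lower and 31.6% higher), and in batch 2 31 lower and 3 higher, beside 68.4% (34.4% lower and 34.1% higher). The median log2 fold change of the 38 genes was -0.50, -0.56 and -1.0, and that of all genes 0.01, 0.0049 and -0.0012. These 3 comparisons share no library. In all 3 of them 22 members were lower and 3, BST2, IFI6 and IRF7, were higher, and the CKI and untreated libraries of each of the 22 did not overlap in any of the 3. How many of all genes were called in all 3, or had libraries that did not overlap, was not counted. The shares of members called lower were 60.5%, 73.7% and 81.6%, about 2 to 3 times those of all genes, and the shares called higher were 7.89%, 13.2% and 7.89%, below those of all genes. Without CKI replicate 1 at 24 h, 32 members were called, 29 lower and 3 higher, beside 53% of all genes. Among them were STAT2 and IFI44, whose values turned from 0.12 and 0.25 to -0.29 and -0.31 without that library. The values of the called members named below moved little, for example to -1.42 for IFIT1, -2.02 for OAS3, -1.64 for RSAD2, 0.42 for BST2, 0.42 for IFI6 and 0.85 for IRF7 without it.

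**Figure D2:**
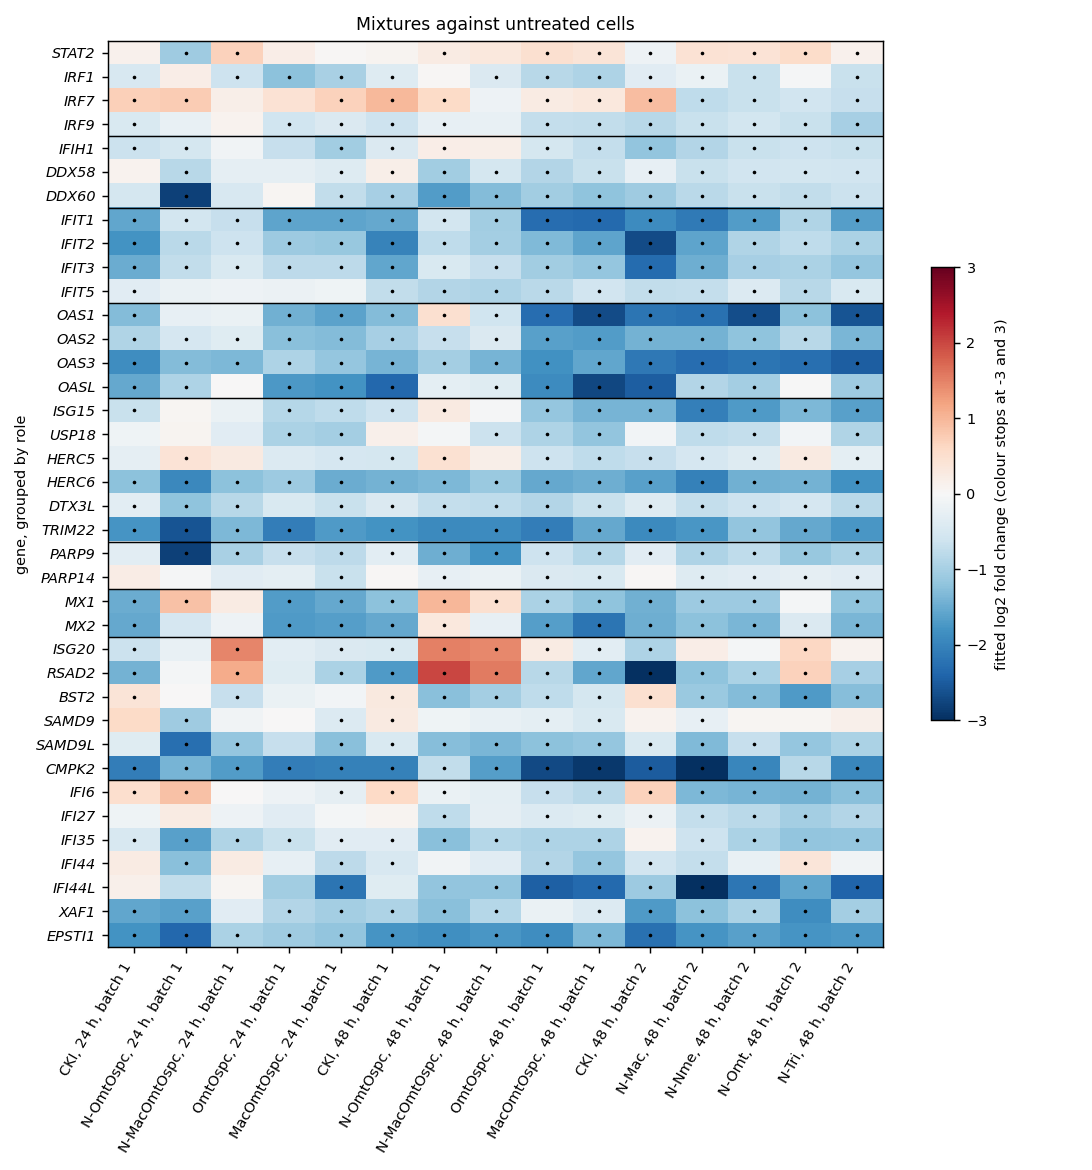
Fitted log2 fold change of the 38 genes (rows, lines between roles) in each of the 15 comparisons of a mixture with untreated cells of its time and batch (columns), blue lower and red higher, with a dot where the adjusted p-value was under 0.05. The IFIT and OAS rows and the rows of HERC6, TRIM22, CMPK2 and EPSTI1 are blue in nearly every column, while RSAD2, ISG20 and MX1 are red with N-OmtOspc and N-MacOmtOspc at 48 h, and BST2, IFI6 and IRF7 are red with CKI.

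The IFIT proteins, which bind foreign RNA and block its translation, were among the most lowered. IFIT2 was at 83.0, 91.1 and 90.9 CPM in the untreated and 22.7, 28.9 and 25.0 CPM in the CKI libraries at 24 h. At 48 h it was at 104, 96.6 and 98.3 against 24.8, 23.2 and 25.5 CPM in batch 1 and at 131, 137 and 121 against 18.4, 20.8 and 20.6 CPM in batch 2. Every CKI library was thus under the lowest untreated library of its group pair by over 2-fold, and the log2 fold changes were -1.79 (SE 0.111), -2.01 (SE 0.0499) and -2.68 (SE 0.076).
IFIT1 went from 86.9, 91.4 and 83.3 to 24.3, 34.1 and 31.1 CPM at 24 h, from 75.6, 80.5 and 71.7 to 27.9, 25.7 and 24.4 CPM at 48 h in batch 1 and from 94.8, 109 and 82.5 to 24.3, 26.2 and 26.5 CPM in batch 2. IFIT3 went from 196, 201 and 192 to 59.7, 74.0 and 78.3, from 187, 187 and 185 to 65.0, 59.3 and 63.2 and from 257, 268 and 241 to 49.6, 51.5 and 52.2 CPM. The groups did not overlap in either gene, with log2 fold changes of -1.55, -1.54 and -1.88 for IFIT1 and -1.48, -1.57 and -2.30 for IFIT3. IFIT5 moved least of the family, by -0.35, -0.75 and -0.74, and was also lower in all 3. The largest adjusted p-value among the 4 genes and 3 comparisons was 0.0212, for IFIT5 at 24 h.

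OAS1, OAS2 and OAS3 encode oligoadenylate synthetases, which sense double-stranded RNA and activate the ribonuclease RNase L, and OASL is a relative that lacks this activity and supports RIG-I. All 4 were lower in all 3 CKI comparisons. OAS3 was at 28.4, 31.2 and 34.6 CPM in untreated and 10.3, 7.84 and 7.72 CPM in CKI libraries at 24 h, at 34.9, 31.4 and 29.2 CPM untreated and 11.0, 12.5 and 12.5 CPM at 48 h in batch 1, and at 43.5, 46.9 and 38.1 CPM untreated and 10.9, 9.62 and 8.29 CPM in batch 2. OASL was at 37.4, 39.3 and 34.3 CPM untreated and 12.5, 12.9 and 12.8, at 36.1, 43.7 and 43.8 CPM untreated and 7.77, 7.79 and 8.45, and at 58.1, 70.3 and 52.2 CPM untreated and 10.4, 11.2 and 10.3 CPM. OAS2 went from 25.3, 24.1 and 26.7 to 13.1, 13.6 and 13.9, from 27.2, 24.4 and 24.6 to 13.7, 12.0 and 12.2 and from 28.9, 34.9 and 25.6 to 11.6, 10.5 and 10.9 CPM. In all 3 genes, and in OAS1, the highest CKI library stayed below the lowest untreated library of its time and batch. The log2 fold changes were -1.86 (SE 0.159), -1.39 (SE 0.096) and -2.15 (SE 0.145) for OAS3, -1.54, -2.35 and -2.48 for OASL, -0.91, -1.0 and -1.42 for OAS2, and -1.31, -1.29 and -2.20 for OAS1, which was under 10 CPM in untreated cells. The change of OASL was more negative at 48 h than at 24 h in batch 1 (difference -0.81 on the log2 scale, adjusted p = 0.0173), the only member called in edgeR's test of that difference, in which 1.56% of all genes tested were called and 4 members had an unadjusted p-value under 0.05. No member was called there without CKI replicate 2 or 3 at 48 h, untreated replicate 2 or 3 at 48 h, or untreated replicate 1 at 24 h, and 3 were called by DESeq2. Without CKI replicate 1 at 24 h, the library that lay apart, 4 of the 38 were called, near the share of all genes called then, 9.45%.

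MX1 encodes a dynamin-like GTPase that blocks incoming viruses. It was at 36.3, 34.0 and 35.5 CPM untreated and, with CKI, 9.91, 13.3 and 14.9 CPM at 24 h, at 32.0, 34.2 and 31.7 CPM untreated and 13.5, 14.8 and 13.3 CPM at 48 h in batch 1, and at 36.3, 37.6 and 33.8 CPM untreated and 13.0, 14.5 and 11.7 CPM in batch 2, with no overlap and log2 fold changes of -1.48, -1.22 and -1.44. The log2 fold changes of its paralog MX2 were -1.54, -1.53 and -1.46.
HERC6, a relative of the ISG15 ligase HERC5, was at 20.2, 22.3 and 18.5 CPM untreated and 9.60, 8.39 and 8.10 CPM, at 18.3, 15.8 and 15.7 CPM untreated and 6.62, 5.95 and 5.87 CPM, and at 27.2, 32.7 and 24.0 CPM untreated and 8.67, 9.36 and 8.67 CPM with CKI, in the order 24 h, 48 h in batch 1 and batch 2. These groups were again apart, with log2 fold changes of -1.22, -1.42 and -1.63. ISG15, the ubiquitin-like protein that HERC5 attaches to targets, changed by -0.66, -0.62 and -1.39, and TRIM22 by -1.78, -1.79 and -1.91, both called lower each time. HERC5 was lower at 48 h in both batches (-0.52 and -0.69) and not called at 24 h (-0.28), and the E3 ligase DTX3L was lower in all 3 (-0.32, -0.43 and -0.38). USP18, which also restrains the interferon receptor and whose reads may be shared with a near-identical copy, USP41, was not called in any of the 3 (-0.14, 0.15 and -0.085). PARP9, the partner of DTX3L, was lower at 48 h in both batches (-0.31 and -0.35), and PARP14 was not called in any.

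RSAD2 was at 4.42, 3.30 and 3.32 CPM in untreated and 1.76, 1.06 and 1.30 CPM in CKI libraries at 24 h, and at 4.08, 3.45 and 3.27 CPM untreated and 1.19, 1.03 and 1.11 CPM at 48 h in batch 1. In batch 2 it went from 17.5, 17.0 and 17.7 to 1.96, 1.86 and 1.44 CPM. CKI libraries of the 2 batches at 48 h thus lay within 1 CPM of each other, with untreated means of 3.60 and 17.4 CPM. Those of batch 2 were all above those of batch 1, on 34 to 44 counts a library against 28. The log2 fold changes were -1.41, -1.69 and -3.30.
CMPK2, a mitochondrial nucleotide kinase encoded beside RSAD2, fell (-2.07, -2.02 and -2.50), on 4 to 46 counts in the untreated and CKI libraries concerned. The other RefSeq start of RSAD2, not the one whose window is printed above, lies next to starts of CMPK2 on the opposite strand, those of PARP9 and DTX3L also lie next to each other on opposite strands, and the strand setting of the counting is not given in the sources used here. ISG20, an exonuclease that degrades RNA, fell (-0.64, -0.45 and -0.93).
SAMD9L, which restrains poxviruses and cell growth, was at 18.1, 18.8 and 22.1 CPM untreated and, with CKI, 19.8, 13.7 and 12.3 CPM at 24 h, where the groups overlapped through CKI replicate 1 and the change of -0.36 was not called (-0.60, called, without that library). At 48 h it was at 22.2, 18.5 and 19.3 CPM untreated and 14.5, 14.2 and 14.5 CPM in batch 1 and at 26.2, 31.0 and 25.7 CPM untreated and 18.8, 20.8 and 19.7 CPM in batch 2, with no overlap and log2 fold changes of -0.46 and -0.46. SAMD9 was called at 48 h in batch 1 only, and there it was higher (0.27, beside 0.57 at 24 h, 0.27, not called, there without CKI replicate 1, and 0.10 in batch 2).

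XAF1, which counteracts the apoptosis inhibitor XIAP, was at 11.4, 10.5 and 12.5 CPM untreated and 4.73, 3.71 and 3.26 CPM at 24 h, at 12.6, 11.1 and 10.9 CPM untreated and 6.11, 5.62 and 6.31 CPM at 48 h in batch 1, and at 17.7, 16.5 and 18.8 CPM untreated and 4.61, 5.91 and 5.62 CPM in batch 2. No CKI library reached an untreated library, and the log2 fold changes were -1.55, -0.93 and -1.69. EPSTI1, first known as a gene of breast epithelium that answers to stroma, fell (-1.79, -1.77 and -2.24), from means of 4.54, 5.16 and 5.23 CPM. IFI44 and IFI44L fell in batch 2 (-0.57 and -1.10), and of the 2 IFI44 was also lower at 48 h in batch 1 (-0.47). IFI27 was called in batch 2 only (-0.18), and IFI35 was lower in batch 1 (-0.47 and -0.34) and not called in batch 2 (0.10).
Among the sensors, IFIH1 fell in all 3 comparisons, by -0.64, -0.44 and -1.19. DDX60, which assists RIG-I, was at 17.4, 19.4 and 20.9 CPM untreated and 18.2, 10.6 and 11.5 CPM at 24 h, at 28.3, 26.1 and 23.8 CPM untreated and 13.6, 12.5 and 13.1 CPM at 48 h in batch 1, and at 54.5, 64.1 and 48.3 CPM untreated and 26.6, 25.1 and 27.1 CPM in batch 2. At 24 h CKI replicate 1 lay among the untreated libraries and the change of -0.52 was not called (-0.81, called, without it), and at 48 h the groups were apart, with -0.99 and -1.07. DDX58 was higher with CKI at 48 h in batch 1 (0.18) and lower in batch 2 (-0.25).

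**Figure D3:**
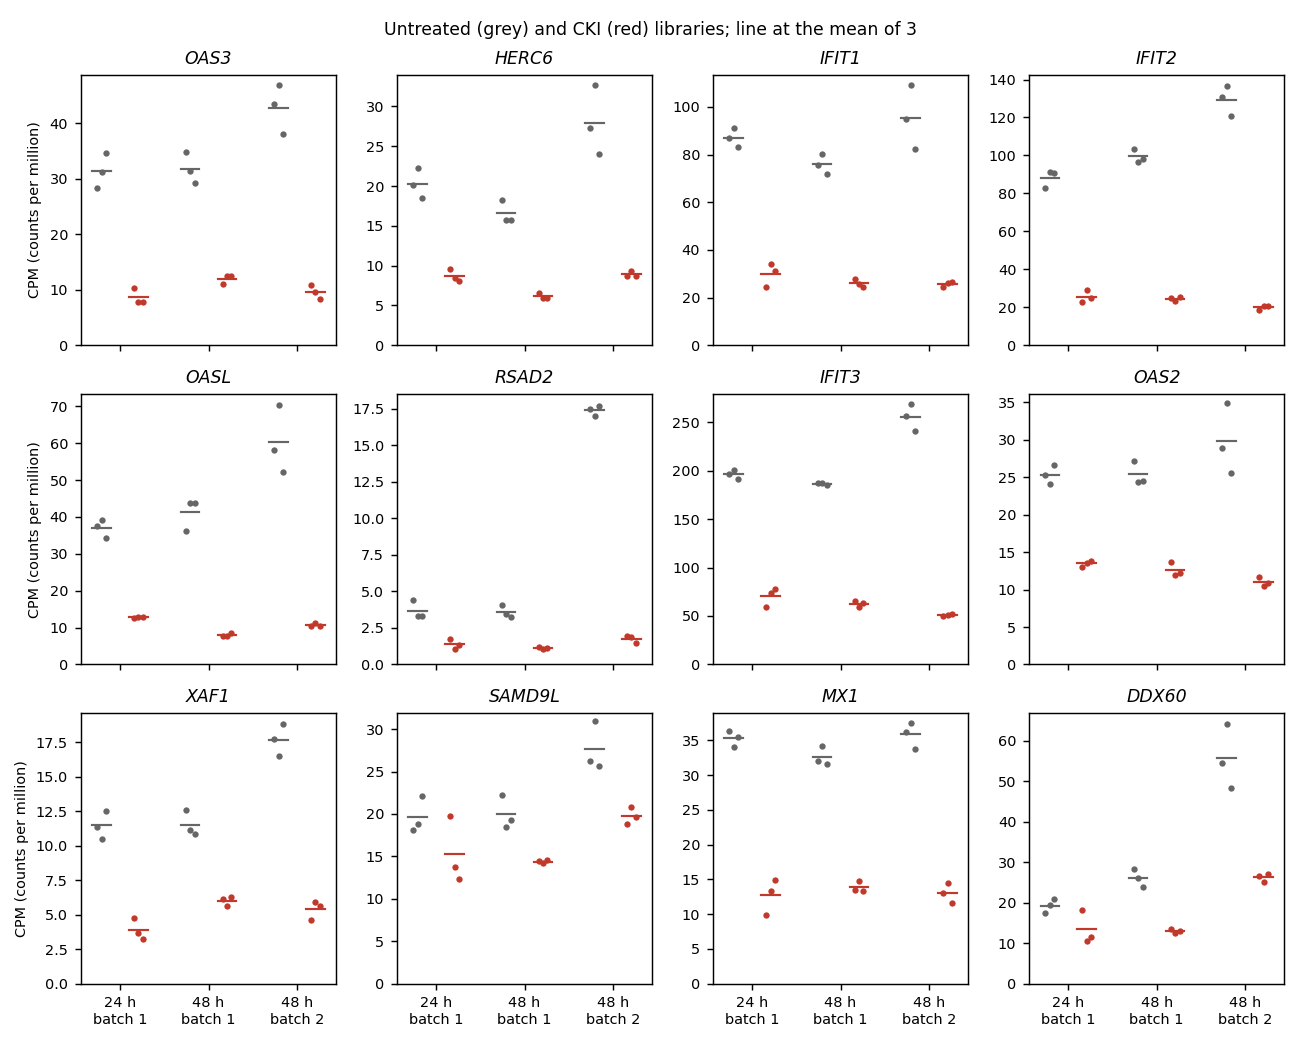
CPM of 12 genes in untreated (grey) and CKI (red) libraries, 1 point for each library and a line at the mean of 3. The pairs are at 24 and 48 h in batch 1 and at 48 h in batch 2. The 12 rank highest by absolute log2 fold change averaged over the 15 comparisons with untreated cells. Genes under 10 CPM in untreated cells of both batches at 48 h were left out of the ranking. Red points lie below the grey points of their pair in every panel at 48 h, and at 24 h in every panel except SAMD9L and DDX60, where 1 CKI library lies among the untreated.

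Against this fall, 3 members were higher with CKI each time. BST2 was at 231, 215 and 190.0 CPM in untreated and 263, 266 and 304 CPM in CKI cells at 24 h, at 205, 222 and 214 CPM untreated and 281, 263 and 238 CPM at 48 h in batch 1, and at 221, 244 and 203 CPM untreated and 313, 301 and 304 CPM in batch 2. IFI6, a mitochondrial and endoplasmic reticulum protein that delays apoptosis, was at 26.4, 23.4 and 21.8 CPM untreated and 37.7, 28.9 and 35.3 CPM, at 22.9, 24.6 and 21.5 CPM untreated and 37.0, 34.4 and 32.0 CPM, and at 31.1, 34.3 and 28.8 CPM untreated and 49.9, 49.2 and 50.4 CPM. IRF7 was at 30.2, 27.0 and 22.9 CPM untreated and 34.7, 46.3 and 50.1 CPM, at 20.6, 24.1 and 25.3 CPM untreated and 44.2, 45.4 and 47.4 CPM, and at 17.5, 19.3 and 17.4 CPM untreated and 35.2, 32.6 and 33.8 CPM. The lowest CKI library was above the highest untreated library for all 3 genes in all 3 pairs. The log2 fold changes were 0.39, 0.29 and 0.48 for BST2, 0.51, 0.59 and 0.68 for IFI6, and 0.71, 0.98 and 0.92 for IRF7 (largest adjusted p = 0.019). These 3 genes and ISG20, and the mixtures in which they are given by library below, were chosen after their values were seen. Of the other transcription factors, IRF1 (-0.48, -0.39 and -0.35) and IRF9 (-0.45, -0.61 and -0.83) fell in all 3 comparisons, while STAT2 was called in batch 2 only (-0.16).

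The size of the CKI change at 48 h differed between the batches for 11 of 38 members, 10 of them with a more negative change in batch 2, beside 13.8% of the 14858 genes tested (7.2% more negative and 6.58% more positive). RSAD2 differed most, by -1.60, and OAS1 by -0.90, ISG15 by -0.76, XAF1 by -0.76, IFIH1 and OAS3 each by -0.74 and IFIT3 by -0.73. IFI35 went the other way (0.44). Most of these genes were also higher in the untreated cells of batch 2: of the 10 with a more negative change, OAS1 alone was not called in that comparison. The test and the comparison of untreated cells share the untreated libraries, and the part of the untreated level in it was not tested. The median difference was -0.22 over the 38 and -0.01 over all genes.

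With OmtOspc and MacOmtOspc, which hold only 2 and 3 of the compounds, the called members were mostly lower. With OmtOspc, 20 members were called at 24 h, each of them lower, beside 7.92% of all genes tested called lower and 8.54% called higher (16.5% in either direction), and 34 were lower and 3 higher at 48 h, beside 33.7% and 34.1% (67.8%). At 24 h the number of members called was 26 without OmtOspc replicate 2, the library that lay apart, beside 19.5% of all genes. It was 11 without OmtOspc replicate 3, 12 without untreated replicate 1, 11 without untreated replicate 2 and 12 without untreated replicate 3. With MacOmtOspc, 33 were lower and 1 higher at 24 h, beside 17.7% and 18.1% (35.8%), and 36 were lower and 2 higher at 48 h, beside 30.1% and 30.5% (60.5%). With all 18 libraries of the time in 1 fit, 22 members were called for MacOmtOspc at 24 h. The medians of the 38 genes were -0.69 and -0.88 at 24 h and -0.91 and -1.16 at 48 h, and those of all genes 0.02, -0.0048, 0.01 and 0.01. The largest falls at 24 h were of TRIM22 with OmtOspc (-2.08) and of IFI44L with MacOmtOspc (-2.19), DDX60 with OmtOspc turned from 0.049, not called, to -0.71, called, without OmtOspc replicate 2, and IRF7 was the member that was higher with MacOmtOspc (0.69).
At 48 h IFIT1 was at 16.4, 14.5 and 15.7 CPM with OmtOspc and 15.4, 14.6 and 15.1 CPM with MacOmtOspc, under the lowest CKI library of that batch. OASL was at 10.9, 11.0 and 11.6 and 6.45, 6.31 and 5.82 CPM. The log2 fold changes from untreated cells were -2.29 and -2.34 for IFIT1, -1.88 and -2.73 for OASL, -2.29 and -2.68 for OAS1 and -2.70 and -2.90 for CMPK2, the last on 1 to 7 counts a library. ISG15 fell (-1.15 and -1.39). BST2 and IFI6, higher with CKI, were lower with these mixtures at 48 h (-0.76 and -0.53 for BST2, -0.69 and -0.80 for IFI6), while IRF7 was higher with both (0.24 and 0.31). STAT2 was higher with OmtOspc (0.47) and MacOmtOspc (0.38) at 48 h, and ISG20 with OmtOspc (0.24). XAF1, at 9.68, 9.78 and 10.4 CPM with OmtOspc, was the member not called there (-0.21). The 2 mixtures and CKI share their untreated cells, and the difference of either from CKI was not tested.

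With N-OmtOspc and N-MacOmtOspc, which lack Omt and Ospc, most called members were lower and some were higher. With N-OmtOspc at 48 h 24 members were lower and 10 higher, beside 40.4% and 40.1% of all genes (80.4% in either direction), and with N-MacOmtOspc 23 were lower and 3 higher, beside 32.3% and 32.4% (64.7%). The medians were -0.51 and -0.56, against 0.01 and 0.01 over all genes. The 2 comparisons share the untreated libraries, and RSAD2, ISG20 and MX1 were higher in each. In a chi-square of the counts of 2 libraries over genes, N-MacOmtOspc replicate 2 at 48 h stood off from its group. The values were 44.3 and 58.5 per degree of freedom, against 12.5 between replicates 1 and 3.
RSAD2 was at 13.6, 15.7 and 13.6 CPM with N-OmtOspc and 10.8, 9.71 and 11.2 CPM with N-MacOmtOspc, against 4.08, 3.45 and 3.27 CPM untreated and 1.19, 1.03 and 1.11 CPM with CKI. Its log2 fold changes from untreated cells were 2.01 and 1.57 (adjusted p = 1.13e-12 and 4.1e-06). ISG20 was at 23.9, 26.7 and 26.3 and 22.9, 23.2 and 27.9 CPM, against 9.06, 9.23 and 9.27 CPM untreated, and rose by 1.51 and 1.44. In both genes every library of these mixtures was above every untreated and every CKI library of batch 1 at 48 h. MX1 was at 66.6, 63.2 and 61.0 and 43.6, 50.5 and 40.3 CPM, with log2 fold changes of 0.99 and 0.47. With N-OmtOspc, OAS1 (0.47), HERC5 (0.45), MX2 (0.31), ISG15 (0.28), STAT2 (0.25), IFIH1 (0.21) and IRF7 (0.58) were also higher.
Most of the other members were lower. TRIM22 fell (-1.90 and -1.89), EPSTI1 (-1.85 and -1.74), DDX60 (-1.67 and -1.30), PARP9 (-1.47 and -1.79) and HERC6 (-1.35 and -1.12). PARP9 was at 4.66, 1.92 and 4.57 CPM with N-MacOmtOspc, lowest in replicate 2, which stood off from its group. Its value without that library is not given. BST2, higher with CKI, was at 88.0, 86.5 and 89.2 CPM with N-OmtOspc and 105, 100.4 and 108 CPM with N-MacOmtOspc (-1.26 and -1.02), all below the untreated libraries.
At 24 h 21 members were lower and 4 higher with N-OmtOspc, beside 33.8% and 33% of all genes (66.8% in either direction, close to the 25 of 38 members), with a median of -0.65 against -0.02 over all genes. PARP9 and DDX60 (both -2.81), TRIM22 (-2.59), EPSTI1 (-2.36) and SAMD9L (-2.26) fell most, and IFI6 (0.88), MX1 (0.87), IRF7 (0.77) and HERC5 (0.40) rose. By the same chi-square N-OmtOspc replicate 3 at 24 h stood off from replicates 1 and 2 (84.9 and 131, against 11.2 between these). IFI6 was at 52.1, 47.3 and 30.0 CPM and IRF7 at 37.0, 34.6 and 61.5 CPM in replicates 1, 2 and 3. Values without replicate 3 are not given. With N-MacOmtOspc 15 were lower and 3 higher, beside 22.1% and 23.8% (45.9%), with a median of -0.30 against 0.03. Those higher were ISG20 (1.47), RSAD2 (1.12) and STAT2 (0.70). The count for N-MacOmtOspc was 31 without its replicate 2, which lay apart, beside 68.3% of all genes, and 10 without its replicate 3, 10 without untreated replicate 1, 11 without untreated replicate 2 and 10 without untreated replicate 3. IFI44 and OASL turned from 0.25 and 0.014, not called, to -0.30 and -0.23, called, without replicate 2. RSAD2 was at 5.17, 11.9 and 6.59 CPM with N-MacOmtOspc at 24 h, the highest in replicate 2, and its value without that library was 0.71. ISG20 (1.54) and STAT2 (0.55) also stayed higher without it, and MX1 was then called higher too (0.51).

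**Figure D4:**
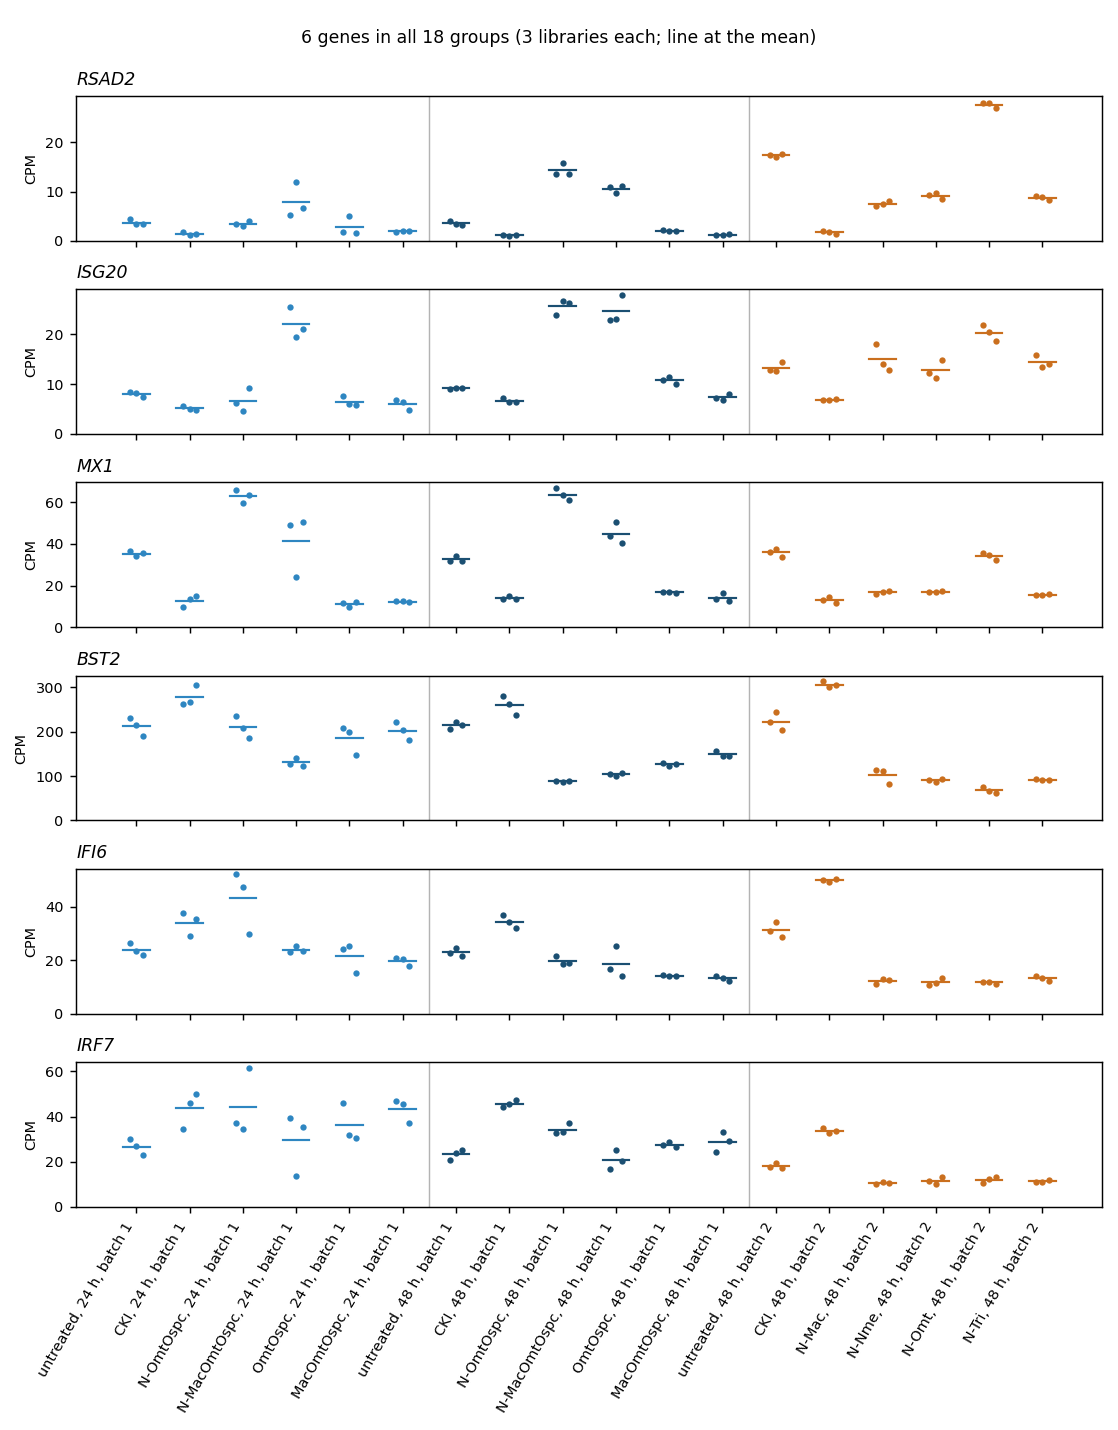
CPM of RSAD2, ISG20, MX1, BST2, IFI6 and IRF7 in each of the 18 groups, 1 point for each of 3 libraries and a line at their mean, with batch 1 at 24 h in light blue, batch 1 at 48 h in dark blue and batch 2 at 48 h in orange. RSAD2 is highest with N-Omt in batch 2 and lowest with CKI and MacOmtOspc in batch 1, and BST2 and IFI6 are highest with CKI in both batches at 48 h.

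With each mixture that lacks 1 compound, most of the set was lower than in untreated cells at 48 h in batch 2. The 4 comparisons share these untreated libraries. N-Mac had 36 lower and 1 higher members (36% and 36.5% of all genes, 72.6% in either direction), N-Nme 34 and 1 (34.6% and 34.9%, 69.5%), N-Omt 28 and 5 (40.2% and 39.4%, 79.6%) and N-Tri 34 and 1 (37.2% and 37.1%, 74.3%). The medians were -1.0, -0.92, -0.79 and -0.99, against 0.01, 0.01, -0.0039 and 0.01 over all genes. The log2 fold changes with N-Mac, N-Nme, N-Omt and N-Tri were -2.28, -2.18, -2.27 and -2.47 for OAS3 and -2.24, -2.65, -1.22 and -2.59 for OAS1. The lowest fitted value was that of CMPK2 with N-Mac, -3.68, on 1 to 3 counts a library against 30 to 38 in untreated cells.
IRF7, BST2 and IFI6, higher with CKI, were lower with N-Mac, N-Nme, N-Omt and N-Tri. BST2 was at 114, 111 and 81.5 CPM with N-Mac, 91.1, 87.1 and 92.7 CPM with N-Nme, 75.2, 67.3 and 60.9 CPM with N-Omt and 92.4, 90.9 and 91.7 CPM with N-Tri. These are all under the lowest untreated library of the batch, 203 CPM. The log2 fold changes were -1.11, -1.31, -1.70 and -1.28 for BST2 and -1.35, -1.40, -1.41 and -1.25 for IFI6. Those of IRF7 were -0.77, -0.66, -0.57 and -0.68. STAT2 was higher in each (0.43, 0.41, 0.56 and 0.13).
RSAD2 was higher than in untreated cells with N-Omt, at 28.1, 28.0 and 27.0 CPM (0.69, adjusted p = 1.09e-07), and lower with N-Mac (-1.20), N-Nme (-0.94) and N-Tri (-0.99). ISG20 (0.63), IFI44 (0.36) and HERC5 (0.28) were also higher with N-Omt. OASL at 59.2, 59.7 and 59.5 and MX1 at 35.7, 34.9 and 32.4 CPM with N-Omt overlapped the untreated libraries and were not called (-0.0023 and -0.048). IFIT2 was at 43.1, 42.1 and 43.6 CPM with N-Mac, 70.1, 69.0 and 69.7 CPM with N-Nme, 71.1, 80.3 and 76.4 CPM with N-Omt and 69.6, 68.4 and 62.3 CPM with N-Tri. It lay between the CKI and the untreated libraries with each, and was called lower than untreated (-1.58, -0.90, -0.76 and -0.96). XAF1 was at 4.46, 5.33 and 4.63 CPM with N-Omt, near its level with CKI, and at 9.00, 9.87 and 9.06 CPM with N-Nme.

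Set directly against CKI of the same time and batch, the mixtures that lack compounds differed from it in both directions. At 48 h in batch 1, 18 members were higher and 13 lower with N-OmtOspc than with CKI, beside 38.3% and 39.5% of all genes (77.8% in either direction), and 14 and 11 of 37 tested with N-MacOmtOspc, beside 29.9% and 30.5% (60.5%). In batch 2 the numbers were 13 higher and 16 lower of 37 with N-Mac (36.6% and 36.2%, 72.8%), 18 and 14 of 37 with N-Nme (37.3% and 35.5%, 72.7%), 19 and 9 of 38 with N-Omt (40.1% and 40.4%, 80.5%) and 14 and 15 of 37 with N-Tri (38.4% and 38.6%, 77.1%). The shares of members called in either direction, 67.6% to 86.5%, lie near those of all genes. CMPK2 is the member that had too few counts for a test where 37 were tested. The medians in these 6 comparisons were 0.12, 0.05, -0.03, 0.22, 0.28 and 0.06, and those of all genes between -0.0032 and 0.01.
The 4 mixtures of batch 2 were set against the same CKI libraries, and so were the 2 of batch 1, so the values are given side by side. RSAD2 had the highest fitted value in each, 3.71 and 3.27 in batch 1 and 2.12, 2.38, 4.01 and 2.31 in batch 2. OASL was higher by 2.06 and 2.01 in batch 1 and by 1.63, 1.48, 2.5 and 1.43 in batch 2, and IFIT2 by 1.25 and 0.99 and by 1.12, 1.80, 1.94 and 1.73. IFIT3 was called higher with values from 0.85 to 1.38, ISG20 from 0.89 to 1.97, MX1 from 0.25 to 2.22, HERC5 from 0.21 to 0.99 and IFIH1 from 0.33 to 0.66. Called lower were BST2, with values from -2.15 to -1.30, PARP9 from -1.46 to -0.39, IFI35 from -1.26 to -0.50, DDX58 from -1.23 to -0.26, SAMD9L from -0.90 to -0.21 and PARP14 from -0.40 to -0.24. For IFI6 the differences were -0.78 and -0.87 in batch 1 and -2.02, -2.06, -2.07 and -1.92 in batch 2, and for IRF7 -0.39, -1.12, -1.68, -1.56, -1.47 and -1.59. OAS3, low with CKI, was called against it with N-OmtOspc (0.40) and N-Tri (-0.31).

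**Figure D5:**
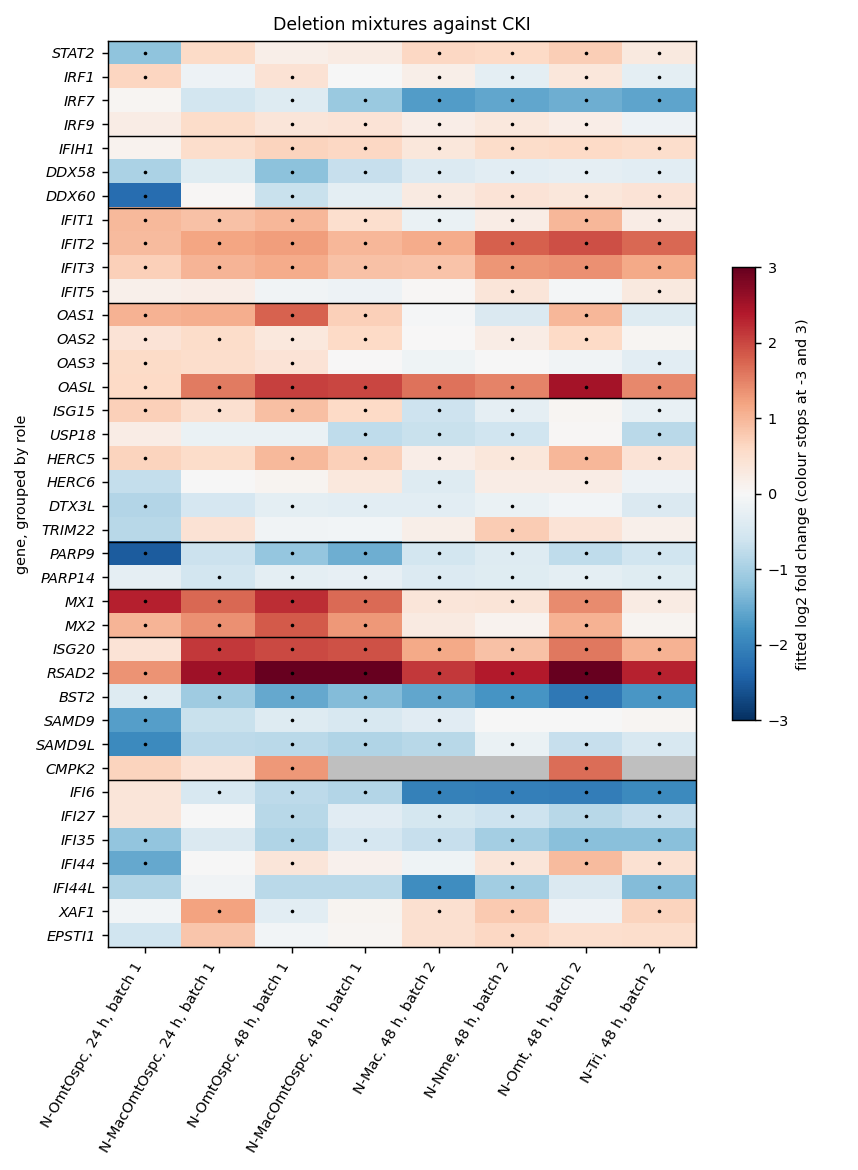
Fitted log2 fold change of the 38 genes (rows, lines between roles) in each of the 8 comparisons of a mixture lacking compounds with CKI cells of its time and batch (columns), red higher than with CKI and blue lower, with a dot where the adjusted p-value was under 0.05 and grey where no test was possible. RSAD2 is red and BST2 blue in every column, and at 48 h the rows of IFIT2, IFIT3, OASL, ISG20 and MX1 are red and those of IFI6, IRF7 and PARP9 blue.

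At 24 h, 13 members were higher and 10 lower with N-OmtOspc than with CKI, beside 26.5% and 27.5% of all genes (54%). Without CKI replicate 1, the library that lay apart, 21 members were called, 11 higher and 10 lower, beside 54.4% of all genes. The share higher among those called with all libraries was 56.5%, and 31.6% when libraries were scaled by their totals alone. MX1 differed most upward (2.33) and PARP9 most downward (-2.50), and RSAD2 was at 1.34. Without CKI replicate 1 these values were 2.18, -2.44 and 1.56. With N-MacOmtOspc 11 were higher and 3 lower, beside 12.3% and 10.8% (23.1%), a share of 78.6% higher, and 91.7% by library totals alone. That comparison holds 2 of the libraries that lay apart, and without both of them 26 members were called, 16 higher and 10 lower, beside 62.5% of all genes. Without N-MacOmtOspc replicate 2 alone the count was 21, beside 40.8% of all genes. It was 9 without N-MacOmtOspc replicate 1, 6 without N-MacOmtOspc replicate 3, 4 without CKI replicate 2 and 9 without CKI replicate 3. RSAD2 (2.54) and ISG20 (2.11) differed most, with 2.36 and 2.26 without both libraries that lay apart.

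Genes upstream of the set were also followed. Of 19 genes for interferons, receptors, Janus kinases and inhibitors of the pathway, 13 had enough counts for a test. With CKI, 5 were higher and 2 lower at 24 h, 7 and 4 at 48 h in batch 1 and 8 and 4 in batch 2. Of all genes 19.3% and 19.3%, 31.6% and 31%, and 34.1% and 34.4% were higher and lower (38.7%, 62.5% and 68.4% in either direction). The list had medians of 0.31, 0.19 and 0.23 beside 0.01, 0.0049 and -0.0012 over all genes. The largest rises were of interferon gamma receptor chains, IFNGR1 at 24 h (0.58) and IFNGR2 at 48 h (0.79 and 0.81), and the largest fall each time was of SOCS1, an inhibitor of Janus kinases that is itself induced by interferon (-1.31, -0.55 and -0.66). The interferon genes on this list were at or near 0: IFNB1 and IFNE had no count in any library, IFNK at most 1, IFNL2 and IFNL3 at most 2, and IFNL1 at most 13 counts, its highest with N-OmtOspc at 48 h (8 to 13 counts a library, beside 0 to 5 in untreated cells of that time). Other interferon genes were not followed.
Of 14 genes of RNA and DNA sensing other than the members, 11 were tested. With CKI, 2 were higher and 2 lower at 24 h, 2 and 7 at 48 h in batch 1, and 4 and 5 in batch 2, beside 38.7%, 62.5% and 68.4% of all genes called in either direction. The share at 24 h was near that of all genes. The medians were 0.04, -0.31 and -0.14, and those of all genes 0.01, 0.0049 and -0.0012. DHX58 (LGP2), the sensor that is itself an ISG, fell most each time (-1.26, -1.56 and -1.83). The adaptor TICAM1 rose most in batch 1 (0.53 and 0.46), and IRF3 in batch 2 (0.51).
A further 35 ISGs that are not among the 38 were followed, and 34 were tested. With CKI, 18 were lower and 3 higher at 24 h, 20 and 6 at 48 h in batch 1, and 21 and 8 in batch 2. Of all genes 19.3%, 31% and 34.4% were lower and 19.3%, 31.6% and 34.1% higher. The medians were -0.35, -0.38 and -0.33, beside 0.01, 0.0049 and -0.0012 over all genes. RTP4, a chaperone of receptors, fell most in all 3 (-3.0, -1.85 and -3.07). LAMP3, a lysosomal membrane protein, rose most in batch 1 (1.52 and 1.67), and the guanylate-binding protein GBP2 in batch 2 (0.89).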

How the data were processed

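RNA-seq of MDA-MB-231 cells was deposited by the authors as 1 table of raw read counts per gene. Per the labels and the submitters' notes, reads were checked with FastQC (0.11.4), trimmed with Trim Galore (0.3.7), aligned to hg19 with STAR (2.5.3a) and counted with featureCounts of Subread (1.5.2). The strand setting and the treatment of reads that match several genes are not given in the sources used here. The counts were used as deposited, with 0 columns of samples left aside.

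The 38 genes, the gene lists and the tests were chosen with earlier results of these data known. Samples were grouped by the labels (mixture, time, batch, 3 libraries each). The count column of N-MacOmtOspc replicate 2 at 24 h bore its label with an added suffix. It was matched to that sample because no other label has this name. The 3 libraries that lay apart at 24 h are those whose labels hold no sample number beside the replicate number, and the reason was not tested. Each comparison was fitted in R (4.3.3) on its own 2 groups, and the differences between batches or times of the CKI change on 4 groups, with filterByExpr, TMM factors and the quasi-likelihood test of edgeR (4.0.16) on counts, and Benjamini-Hochberg adjustment over all genes tested. Values are printed by library for the 12 members with the largest absolute log2 fold change averaged over the 15 comparisons with untreated cells, among those at 10 CPM or more in untreated cells, and the rest by log2 fold changes. The SE of a log2 fold change is from the spread of log2 CPM between replicates. The fit was tested on simulated data with 1 spread for all genes and no library that lay apart. That test therefore does not cover the 24 h comparisons that hold such libraries. P-values measure the spread between libraries of 1 line. Counts of 54 libraries (17673537 to 26138924 in total) limit genes at a few counts, CMPK2 and IFI44L above all. No 2 libraries of the same group were alike within counting error. Libraries of different groups were not compared in this way. Alternatives were DESeq2 (1.42.0), RLE factors, library sizes alone, a filter of 1 count, a fit of all 18 libraries of the time and batch, the replicate number as a block, each library left out, and both libraries that lay apart left out of N-MacOmtOspc against CKI at 24 h, which was added after seeing the data. Promoter windows are from RefSeq for GRCh38.p14, and no coordinate of the authors' build was used. Matching windows were not found here for 7 genes. Of the gene lists, 2 genes are not reported here and are left out of every list count.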

Additional observations from a re-analysis of the deposited data

Results flagged for a closer look

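At 48 h the change with CKI relative to untreated cells differed between the batches for 11 of the 38 genes, each in edgeR's test of the difference itself (adjusted p over all genes). The differences below are the log2 change in batch 2 minus that in batch 1, with both changes. For RSAD2 the difference was -1.60 (adjusted p = 7.58e-05), from -1.69 in batch 1 to -3.30 in batch 2. For OAS1 the difference was -0.90 (adjusted p = 0.0194), from -1.29 in batch 1 to -2.20 in batch 2. For OAS3 the difference was -0.74 (adjusted p = 0.00126), from -1.39 in batch 1 to -2.15 in batch 2. The IFIT genes and the small effectors were next. IFIT2 changed by -2.01 in batch 1 and -2.68 in batch 2, a difference of -0.66 (adjusted p = 4.1e-05). IFIT3 changed by -1.57 in batch 1 and -2.30 in batch 2, a difference of -0.73 (adjusted p = 1.08e-06). ISG15 changed by -0.62 in batch 1 and -1.39 in batch 2, a difference of -0.76 (adjusted p = 2.78e-05). ISG20 and XAF1 had smaller changes in batch 1. In ISG20 a change of -0.45 stood beside -0.93, a difference of -0.47 (adjusted p = 0.0205). In XAF1 a change of -0.93 stood beside -1.69, a difference of -0.76 (adjusted p = 0.00166). The RNA sensors IFIH1 and DDX58 differed as well. For IFIH1 the difference was -0.74 (adjusted p = 7.08e-05, -0.44 and -1.19). DDX58 differed by -0.43 (adjusted p = 0.00112), with a rise of 0.18 in batch 1 and a change of -0.25 in batch 2. DDX60, which assists RIG-I, was not called in this test (-0.069). IFI35 differed in the other direction, by 0.44 (adjusted p = 0.00351), from -0.34 to 0.10. Between 24 and 48 h in batch 1, OASL differed by -0.81 (adjusted p = 0.0173), from -1.54 at 24 h to -2.35 at 48 h, and this call was lost without some single libraries, as given with that result. Groups of 3 libraries were not searched for single outlying values.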

How the results depend on the processing

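Values and calls were recomputed under each alternative, for counts of members and for single genes. Log2 fold changes of single genes kept their direction and their side of the threshold in 995 of 1018 values with DESeq2, 1014 of 1022 with RLE factors and 946 of 1022 with library sizes alone. The numbers were 994 of 1022 with a filter of 1 count, 820 of 870 with all 18 libraries of the time and batch, and 6004 of 6588 with 1 library left out. With library sizes alone the median of all genes moved by up to 0.344 (N-OmtOspc against CKI, 24 h), with RLE factors by up to 0.0341 and with DESeq2 by up to 0.0333.

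The number of members called moved by over 1.5 times in these comparisons. For MacOmtOspc at 24 h it was 22 with all 18 libraries (34 with its own groups). For N-MacOmtOspc at 24 h it ran from 10 to 31 with 1 library left out, for OmtOspc at 24 h from 11 to 26, for N-MacOmtOspc against CKI at 24 h from 4 to 21, for untreated cells at 48 h against 24 h from 2 to 12, and for the change with CKI at 48 h minus 24 h from 0 to 4, with 3 by DESeq2. Without both libraries that lay apart, N-MacOmtOspc against CKI at 24 h had 26. The share of all genes is given above only for fits without libraries that lay apart. Elsewhere a shift of the members alone cannot be told from a shift of all genes. The cause was not tested.

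Single genes turned in sign as follows. With 1 library left out, the log2 fold change with CKI at 24 h ran from -0.293 to 0.315 for STAT2 and from -0.311 to 0.472 for IFI44, the lowest without CKI replicate 1. With N-MacOmtOspc at 24 h it ran from -0.231 to 0.137 for OASL and from -0.301 to 0.469 for IFI44, the lowest without its replicate 2, and with OmtOspc at 24 h from -0.709 to 0.382 for DDX60, the lowest without its replicate 2. With library sizes alone BST2 was at -0.285 with N-OmtOspc at 24 h.

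In no comparison did every pair of libraries with the same replicate number correlate over 0.1, so the numbers do not pair the samples, although in 4 comparisons of batch 2 all 6 libraries correlated best with their own number (at most 0.0761), a hint from the data and not the design. With the replicate number as a block, 982 of 1022 values kept direction and side. The block called 9 members for N-MacOmtOspc against CKI at 24 h, 2 for untreated cells at 48 h against 24 h and 0 by edgeR for the change with CKI at 48 h minus 24 h, where 4 members had an unadjusted p-value under 0.05 without the block.

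Depth limits CMPK2, with under 10 counts in 27 libraries, and IFI44L, in 19. The 3 libraries that lay apart at 24 h widen the spread of their groups.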
